A study of Mus musculus with 8 samples.

Results

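Keratins are the intermediate filament proteins of epithelial cells, and their genes were followed here through the enamel organ of the mouse first molar. The members are the protein-coding genes of the count table whose symbol is Krt, a number and at most 1 letter, which leaves out the keratin-associated proteins and Krtdap. The rule found 53 genes, 28 of type I and 25 of type II, among the 54532 genes of the table and the 22046 that code for protein. Krt74 fits the symbol but is annotated as a pseudogene, and it stayed out with 1 to 6 counts per library.

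The RNA sequencing of the study compared the secretory with the maturation stage of enamel formation, in a search for K+ transporters and channels. First molars were dissected from untreated wt C57BL/6 pups at P5, in the secretory stage, and at P12, in the maturation stage. After the soft tissue inside the tooth had been removed, RNA of the remaining enamel organ was captured by its polyA tail. For each library 5 pups were pooled, and the 4 libraries of an age are numbered 1, 3, 4 and 5 at P5 and 1, 2, 3 and 4 at P12 by the replicate numbers of their labels. The p-values therefore measure the spread between pools and not between single pups.

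A keratin filament is built from pairs of chains, each made of an acidic type I protein and a basic type II protein, so that an epithelial cell makes genes of both types. Which pair it makes depends on its place: Krt5 and Krt14 in the basal layer of stratified epithelia, Krt4 and Krt13 above it in the oral mucosa, Krt1 and Krt10 in the differentiating epidermis, and Krt8 and Krt18 in simple epithelia. The enamel organ grows from the oral epithelium of the embryo, and its ameloblasts, stratum intermedium and later papillary layer are cells of that origin. The filaments are anchored at desmosomes and hemidesmosomes and give these cells their mechanical strength.

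Libraries held 16574548 to 20262601 counts at P5 and 17588152 to 22013456 at P12, so that 3 counts correspond to 0.136 to 0.181 CPM. The labels describe the cells as of epithelial origin. The 4 markers of secretory ameloblasts summed to between 4966559 and 5580346 normalized counts at P5 and to between 237041 and 621683 at P12, and the 5 maturation markers to between 12880 and 44228 and then to between 356963 and 482565. The 6 markers of mesenchyme, odontoblasts and bone were present in every library as well, with sums between 866336 and 1219872 normalized counts. P12 library 4 stood apart from the other P12 libraries in several keratins, and values without it are given for the keratins it moved most. P5 library 5 had the lowest sum of the maturation markers at P5, 12880 against 36789 to 44228 in the others, and without both libraries 19 keratins were higher at P12 and 9 lower. In such bulk RNA, fewer cells of a type and less RNA per cell cannot be told apart.

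The keratins moved in both directions between P5 and P12, and most of those with enough counts changed. Of the 53 genes, 31 had enough counts to be tested, and 17 of these were higher at P12, 9 were lower and 5 passed in neither direction at an adjusted p under 0.05 (edgeR quasi-likelihood test over all genes). These were 54.8% and 29.0% of the tested keratins, while over all 16440 genes tested, 28.8% were higher and 28.4% were lower. The share of keratins that fell was thus near that of all genes. The 31 tested keratins had a median log2 fold change of 1.30, against 0.01 over all genes tested. Krt6b, Krt24, Krt76, Krt16 and Krt6a were higher by at least 5 log2 units, as were 62 of all genes tested (0.377%). The filter keeps a gene that has enough counts in the libraries of 1 age, so that genes such as Krt24 and Krt28, which are nearly absent at the other age, had to differ, and the counts and medians over tested genes are descriptions. Without P12 library 4, all of these 17 were again higher, together with Krt19 and Krt90, and the same 9 were lower.

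Both types took part. Among the 15 type I genes tested, 8 were higher, 5 lower and 2 in neither class, with a median log2 fold change of 1.83. Among the 16 type II genes these numbers were 9, 4 and 3, with a median of 1.06. In 13 keratins every P12 library was above every P5 library, and in 9 every one was below, where 26.0% and 26.6% of all genes tested did so. The 4 called genes whose ages overlapped were Krt4, Krt1, Krt23 and Krt27, all called higher. Scaled by total count alone, 18 keratins were higher and 9 lower, while 54.0% of all genes tested were higher, 14.2% were lower and their median log2 fold change was 0.38.

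**Figure D1:**
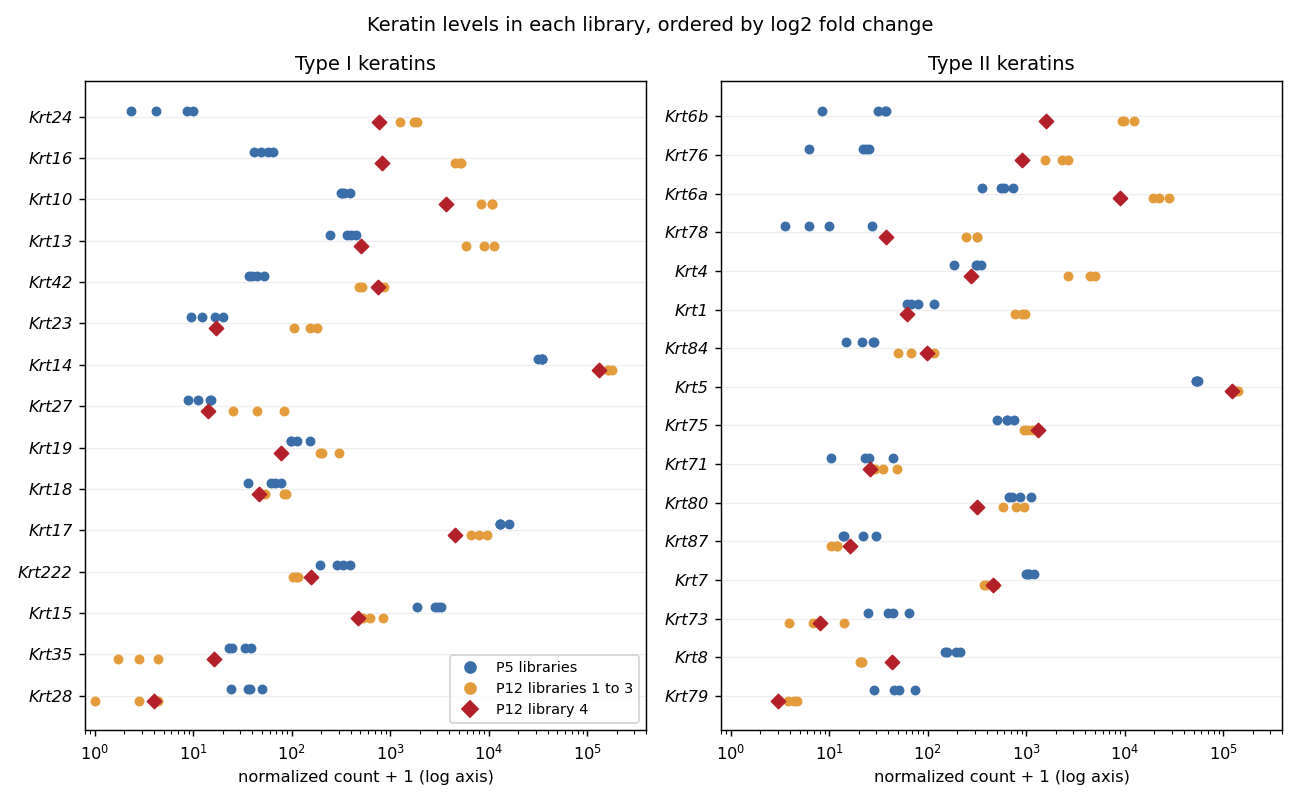
Normalized count plus 1 (log axis) of the 31 tested keratins in each library, type I on the left and type II on the right, ordered by log2 fold change from P5 to P12. Blue points are the 4 P5 libraries, orange points P12 libraries 1 to 3 and red diamonds P12 library 4, which lies below the other P12 libraries in most keratins of the upper rows.

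The bases before the start site are shown for 4 keratins of these groups, because they cover the most abundant type II gene and 3 suprabasal genes that rose. They are RefSeq sequences of GRCm38.p6, all on the minus strand, and hold the 250 bases before the start, at chr15:101712906-101713155 for Krt5, chr11:99389365-99389614 for Krt10, chr11:100121567-100121816 for Krt13 and chr15:101892921-101893170 for Krt76. Capitals mark TATAAA, the letters of a TATA box, and TGANTCA, those of an AP-1 site, on either strand.
Krt5: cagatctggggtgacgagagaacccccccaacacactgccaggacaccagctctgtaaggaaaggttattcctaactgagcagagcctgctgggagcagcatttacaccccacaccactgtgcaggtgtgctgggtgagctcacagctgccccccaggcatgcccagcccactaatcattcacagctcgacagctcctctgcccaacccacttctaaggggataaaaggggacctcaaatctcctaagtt
Krt10: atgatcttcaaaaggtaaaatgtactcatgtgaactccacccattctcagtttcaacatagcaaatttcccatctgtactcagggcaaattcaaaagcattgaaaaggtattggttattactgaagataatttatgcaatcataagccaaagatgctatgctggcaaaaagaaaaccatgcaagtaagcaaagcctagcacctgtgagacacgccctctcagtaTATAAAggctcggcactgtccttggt
Krt13: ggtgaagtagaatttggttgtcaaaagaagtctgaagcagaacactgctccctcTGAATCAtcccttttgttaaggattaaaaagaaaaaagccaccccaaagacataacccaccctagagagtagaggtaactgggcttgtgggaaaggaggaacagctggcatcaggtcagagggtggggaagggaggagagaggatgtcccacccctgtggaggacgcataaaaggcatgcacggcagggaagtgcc
Krt76: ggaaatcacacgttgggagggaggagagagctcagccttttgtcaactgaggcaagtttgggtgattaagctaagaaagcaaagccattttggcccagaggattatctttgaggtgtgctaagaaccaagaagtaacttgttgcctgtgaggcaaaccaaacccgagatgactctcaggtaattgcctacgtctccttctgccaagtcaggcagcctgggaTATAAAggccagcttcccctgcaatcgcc

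A TATAAA began 26 bases before the start of Krt10 and 29 bases before that of Krt76, and a TGAATCA began 196 bases before the start of Krt13. Neither set of letters was found in the Krt5 window. RefSeq windows of 250 bases before to 50 after the start were matched by symbol for 36 of the 53 keratins, 17 of them called. In 30 windows the RefSeq start lay within 50 bases of the gene's start in the count table. For Krt7 and Krt14 it lay 1360 and 1518 bases away. TATAAA was in 19 of these 36 windows (52.8%) and in 13.6% of the 32544 windows of all genes. Each keratin was given the window nearest its start in the count table. The 32544 were all distinct windows, not reduced to 1 per gene, so that the 2 sets were built differently. Among the called keratins with a window it was in 5 of 12 that were higher and 3 of 5 that were lower. CACCC, the core of a KLF site, was in 30 keratin windows (83.3%, against 57.7% of all) and GGGCGG, a GC box, in 2 (5.56%, against 35.9%), those of Krt7 and Krt75. TGANTCA was in 1 of 36 windows (2.78%, against 7.79%). These matches on both strands describe letters and not sites that were bound.

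The basal layer keratins carried most of the keratin signal at both ages. Krt14, the type I basal chain (chr11:100203162-100207548, minus strand, in GRCm38 coordinates of the deposited table), had P5 normalized counts of 34752, 31982, 34971 and 34535 (libraries 1, 3, 4 and 5, here and in what follows) and P12 normalized counts of 163773, 178109, 163268 and 131212 (libraries 1 to 4). Every P12 library was above every P5 library, and the lowest P12 value was that of library 4. The change was 4.67-fold, a log2 fold change of 2.22 ± 0.12 (SE, adjusted p = 5.3e-08 by edgeR). The exact permutation test gave p = 0.0286, the smallest it can give for 4 libraries against 4, and it gave this value for each of the 22 keratins without overlap.

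Krt5, the type II partner of Krt14 (chr15:101707070-101712898, minus strand), rose less. It had normalized counts of 55481, 52803, 54348 and 53324 at P5 and of 130730, 141453, 135754 and 123257 at P12. The 4 libraries of an age lay close together and the ages did not overlap, and the log2 fold change was 1.30 ± 0.09 (SE, adjusted p = 5.6e-07). Krt15, a type I keratin of basal cells and of the hair follicle bulge, fell. It had normalized counts of 3070, 3267, 2820 and 1857 at P5 and of 617, 847, 534 and 466 at P12, a log2 fold change of -2.16 ± 0.20 (SE, adjusted p = 4.5e-06). P5 library 5 held the lowest P5 level of Krt15 and was still above every P12 library.

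The keratins of stress and activation, which epidermal cells induce after wounding, held 3 genes that rose and 1 that fell. Krt6a, a type II gene at chr15:101689910-101694307, had normalized counts of 726, 559, 601 and 358 at P5 and of 22522, 28527, 19321 and 8936 at P12. Its log2 fold change was 5.15 ± 0.36 (SE, adjusted p = 4e-07), and P12 library 4 lay below the other P12 libraries and above all of P5. Its neighbour Krt6b had 36.0, 30.2, 36.9 and 7.41 at P5 and 9876, 12538, 9496 and 1598 at P12. With 8.28 ± 0.70 (SE, adjusted p = 2e-06) it had the highest log2 fold change of the tested keratins.

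Krt16, the type I keratin that pairs with Krt6a, had normalized counts of 63.0, 57.0, 47.5 and 40.2 at P5 and of 5095, 5285, 4593 and 831 at P12. Its P12 libraries 1 to 3 lay close together, library 4 was far below them, and none overlapped P5 (log2 fold change 6.25 ± 0.57, SE, adjusted p = 3.7e-06). Krt17, which is also made in hair, nail and gland appendages, went the other way. It fell from 13115, 12984, 13054 and 15968 at P5 to 7900, 9585, 6695 and 4527 at P12 (log2 fold change -0.94 ± 0.19, SE, adjusted p = 0.0011). P12 library 4 was thus the lowest P12 library for all 4 genes of this group, the one that fell included.

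Near-identical sequence limits how these counts can be split between genes. Of the 100-base stretches of the Krt6a transcripts, 26.6% also occur in Krt6b, and 30.1% of those of Krt6b occur in Krt6a. For Krt16, 24.3% of the stretches occur elsewhere, most of them in the pseudogene Gm11597, which had at most 5 counts. Of the exonic bases of Krt6a, 24.8% also lie in genes on the opposite strand, and one of these, Gm49428, had 0 to 2 counts at P5 and 32 to 63 at P12. Whether the counting used strand is not given in the sources used here, so that reads of these pairs cannot be told apart without it.

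All 5 suprabasal keratins of the mucosal list were called higher at P12. Krt13, the type I keratin above the basal layer of oral mucosa, had normalized counts of 453, 404, 363 and 245 at P5 and of 8878, 11244, 5840 and 510 at P12 (log2 fold change 4.18 ± 0.70, SE, adjusted p = 3.8e-04). Its type II partner Krt4 had 348, 312, 319 and 183 at P5 and 4425, 5051, 2644 and 276 at P12 (log2 fold change 3.42 ± 0.66, SE, adjusted p = 9.6e-04). In both genes P12 libraries 1 to 3 were far above P5, while library 4 was just above the P5 range for Krt13 and inside it for Krt4. The exact permutation test for Krt4 gave p = 0.114. Without P12 library 4 the log2 fold changes were 4.57 for Krt13 and 3.80 for Krt4.

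Krt76, a suprabasal type II keratin of the palate and gingiva, had normalized counts of 24.4, 21.2, 22.4 and 5.29 at P5 and of 2667, 2332, 1544 and 914 at P12, a log2 fold change of 6.70 ± 0.43 (SE, adjusted p = 2.5e-07). Krt24, a type I gene, had 7.71, 8.94, 1.32 and 3.18 at P5 and 1865, 1762, 1273 and 767 at P12, a log2 fold change of 8.02 ± 0.43 (SE, adjusted p = 5.4e-08). Unlike Krt13 and Krt4, these 2 genes stayed far above every P5 library in P12 library 4. Krt78, of type II, had 2.57, 8.94, 5.27 and 26.5 at P5 and 245, 316, 319 and 37.1 at P12, a log2 fold change of 4.32 ± 0.70 (SE, adjusted p = 3.1e-04). Its ages came close together, with the highest P5 value in library 5 and the lowest P12 value in library 4. Without P5 library 5 its log2 fold change was 5.29, and without both of these libraries 5.64.

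Of the keratins of epidermal differentiation, the 2 that had enough counts were higher at P12. Krt10, the type I chain, had normalized counts of 321, 394, 315 and 341 at P5 and of 10816, 10866, 8450 and 3658 at P12 (log2 fold change 4.62 ± 0.31, SE, adjusted p = 3.4e-07). Its type II partner Krt1 had 116, 78.3, 67.2 and 61.4 at P5 and 903, 978, 769 and 60.2 at P12 (log2 fold change 3.08 ± 0.64, SE, adjusted p = 0.0015). P12 library 4 was above P5 for Krt10 and below every P5 library for Krt1, for which the exact permutation test gave p = 0.143. By limma-voom the adjusted p of Krt1 was 0.10. Of the 3 remaining genes of this list, Krt2 reached 1 count, Krt9 reached 6 and Krt77 reached 8 in any library.

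The simple epithelial keratins did not move together. Krt8, a type II keratin of simple epithelia, fell from normalized counts of 193, 157, 210 and 148 at P5 to 19.8, 19.4, 20.4 and 42.2 at P12 (log2 fold change -2.81 ± 0.26, SE, adjusted p = 3.9e-06). Krt7, a type II keratin of ducts, fell from 1005, 1070, 1055 and 1196 to 389, 484, 372 and 455 (log2 fold change -1.35 ± 0.10, SE, adjusted p = 4.7e-07). Neither gene overlapped between the ages, and Krt8 in P12 library 4 was 2.13 times the median of the other P12 libraries. With library 4 left out, Krt8 had a log2 fold change of -3.15.

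Krt18, the type I partner of Krt8, did not pass the test. Its 4 P5 libraries had normalized counts of 77.1, 60.4, 67.2 and 34.9 and its P12 libraries 52.8, 86.1, 83.4 and 45.2 (log2 fold change 0.17 ± 0.29, SE, adjusted p = 0.64). Krt19, a small type I keratin, had 96.4, 154, 113 and 97.4 at P5 and 191, 302, 204 and 76.3 at P12 (log2 fold change 0.75 ± 0.33, SE, adjusted p = 0.075). Its libraries 1 to 3 of P12 were above all of P5 and library 4 was below, and without library 4 the log2 fold change was 1.0 (adjusted p = 0.00087). Krt23 was called higher with 19.3, 11.2, 15.8 and 8.47 at P5 and 152, 181, 105 and 16.1 at P12 (log2 fold change 3.07 ± 0.61, SE, adjusted p = 0.0013). P12 library 4 lay inside its P5 range, and the exact permutation test gave p = 0.0571. Krt20, the last gene of this list, had at most 8 counts.

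The keratins of the hair follicle, nail and filiform papillae were mostly near the limit of detection. Of 26 genes, 9 were tested, and 4 of these were higher, 3 lower and 2 in neither class. Krt75, a type II keratin of the companion layer of the hair follicle that has also been described in enamel, had normalized counts of 743, 637, 643 and 510 at P5 and of 955, 1030, 1135 and 1315 at P12 (log2 fold change 0.81 ± 0.12, SE, adjusted p = 1.8e-04). Krt42, a type I keratin of the nail unit, had 38.6, 43.6, 35.6 and 51.9 at P5 and 486, 856, 517 and 747 at P12 (log2 fold change 3.92 ± 0.22, SE, adjusted p = 8e-08). Neither gene was low in P12 library 4, which held the highest P12 level of Krt75.

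Krt84, a type II keratin of the filiform papillae of the tongue, also rose, with normalized counts of 20.6, 26.8, 27.7 and 13.8 at P5 and of 48.4, 67.5, 114 and 97.4 at P12 (log2 fold change 1.88 ± 0.32, SE, adjusted p = 4.4e-04). Krt27, a type I keratin of the inner root sheath, had 14.1, 10.1, 7.91 and 13.8 at P5 and 43.3, 83.5, 24.1 and 13.1 at P12. It was called with an adjusted p of 0.012 and a log2 fold change of 1.83 ± 0.53 (SE), but its ages overlapped through P12 library 4 (exact permutation p = 0.0857), and by limma-voom its adjusted p was 0.055. Its log2 fold change was 1.24 without P12 library 2, which held its highest level, and 2.11 without library 4.

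The other inner root sheath keratins did not follow Krt27. Krt28, of type I, fell from between 23.1 and 49.2 to between 0 and 3.38 normalized counts (log2 fold change -4.12 ± 0.52, SE, adjusted p = 4.5e-05), and Krt73, of type II, from between 23.5 and 63.3 to between 2.93 and 13.0 (log2 fold change -2.55 ± 0.44, SE, adjusted p = 4.3e-04). The type II gene Krt71 ranged from 9.53 to 43.5 at P5 and from 25.1 to 48.1 at P12 and did not pass (log2 fold change 0.47 ± 0.39, SE, adjusted p = 0.34). Krt35, a type I keratin of the hair matrix and cuticle, fell from 21.9, 32.4, 23.7 and 38.1 to 0.733, 3.38, 1.85 and 15.1 (log2 fold change -2.54 ± 0.61, SE, adjusted p = 0.0039), with its highest P12 level in library 4. Without that library its log2 fold change was -3.83. Krt87, a type II hair keratin, did not pass, with a log2 fold change of -0.73 ± 0.34 (SE, adjusted p = 0.092).

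Of the 6 hair shaft markers, 5 were too low to be tested, Krtap13 was at 0 in every library, and the hair regulator Hoxc13 was lower at P12 with a log2 fold change of -1.54 (-2.12 without P12 library 4). Their summed level was 43.4 to 66.0 normalized counts at P5, 11 to 31.2 in P12 libraries 1 to 3 and 41.2 in P12 library 4. Hoxc13 alone had 43.4 to 54.8 at P5 and 6.6, 7.59, 21.3 and 35.1 in P12 libraries 1 to 4. The means of Krtap3-1 and Krtap4-16 went up, from 1.73 to 7.18 and from 0 to 1.5. Those of Krtap8-1 and Krtap11-1 went down, from 2.68 to 1.69 and from 0.643 to 0. The part of these markers in the result was not tested.

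Outside these groups, 2 keratins fell. Krt79, a type II keratin of the hair canal and sebaceous duct, went from between 27.7 and 73.8 to between 2.01 and 3.67 normalized counts (log2 fold change -3.97 ± 0.40, SE, adjusted p = 7.4e-06). Krt222, of type I, went from 392, 332, 289 and 192 to 102, 111, 115 and 155 (log2 fold change -1.32 ± 0.21, SE, adjusted p = 2.5e-04). Krt80, of type II, did not pass the test (log2 fold change -0.35 ± 0.28, SE, adjusted p = 0.30), and its exons share 4.1% of their bases with the opposite-strand gene Gm35853, which had 128 to 242 counts at P5 and 18 to 34 at P12.

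The 22 keratins that were not tested were 13 of type I and 9 of type II, and 6 of them stayed at 3 counts or fewer in every library. Krt90 reached 27 counts, Krt36 17, Krt25 15 and Krt82 13 in a library. Between 4 and 8 counts were the highest of Krt31, Krt20, Krt77, Krt83, Krt9, Krt81, Krt26, Krt33b, Krt33a, Krt34, Krt39 and Krt86. Krt72, Krt12, Krt32, Krt88, Krt2 and Krt40 reached 3 counts at most. With no filter on low counts, Krt90 was called higher and Krt25 lower at P12, and no other gene of these 22 was called.

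In genome order the genes that rose and fell were interleaved. Of the 53 genes, 27 lie on chromosome 11 and 26 on chromosome 15, and each cluster holds one type except for Krt18, a type I gene beside Krt8 on chromosome 15. Krt17 fell while its neighbours Krt16 and Krt42 rose. Krt15 fell beside Krt13, and Krt79 fell between Krt4 and Krt78. Krt6b, Krt6a and Krt5, which are adjacent on chromosome 15, all rose.

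**Figure D2:**
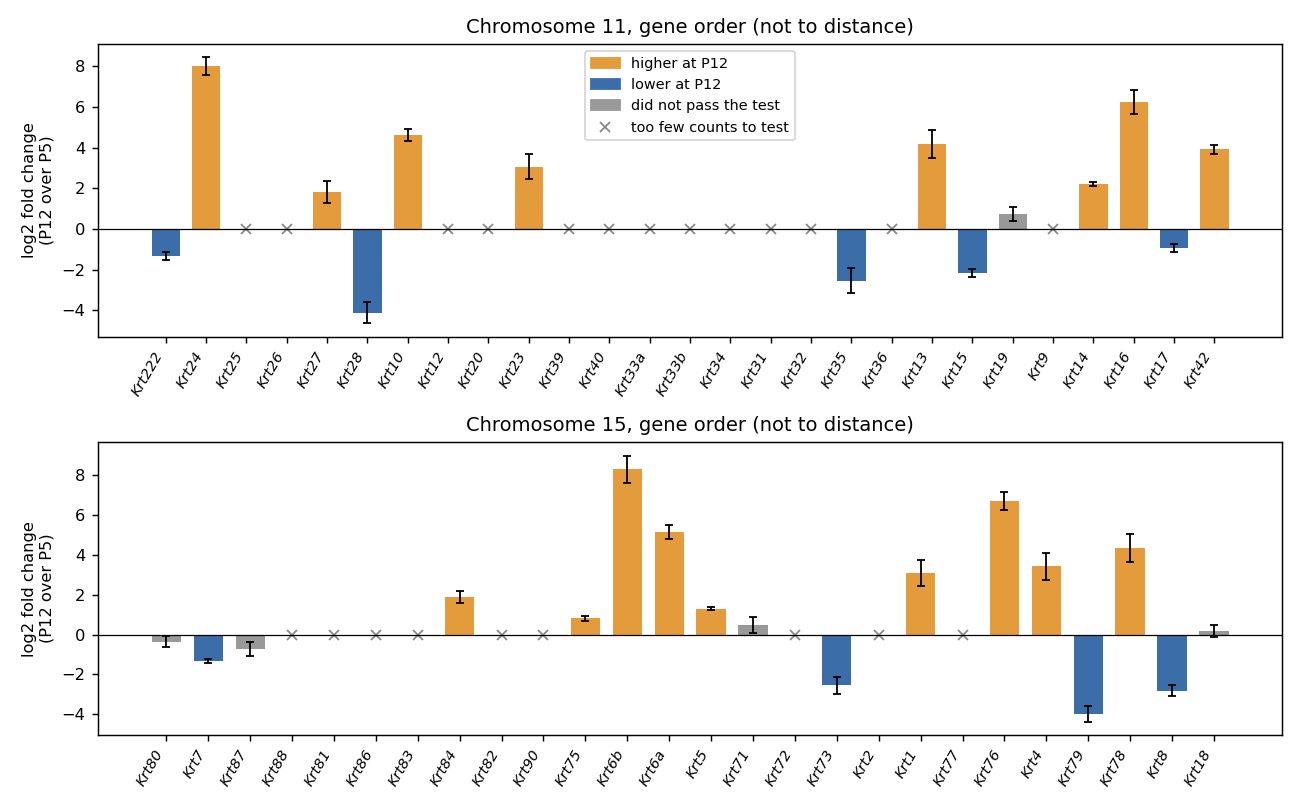
Log2 fold change from P5 to P12 (bars, with the standard error of the edgeR fit) of the keratin genes in their order along chromosome 11 (top) and chromosome 15 (bottom), not to distance. Orange bars were higher at P12, blue bars lower, grey bars did not pass the test, and crosses are genes with too few counts. Rising genes such as Krt16 stand next to falling ones such as Krt17.

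The keratins made up a larger part of all RNA at P12. Their share of all counts in the P5 libraries was 0.51%, 0.49%, 0.51% and 0.52%, and in the P12 libraries it reached 2.31%, 2.51%, 2.18% and 1.59%. The means were 0.51% ± 0.01 and 2.15% ± 0.40 (SD, n = 4), and library 4 was the lowest at P12. The enamel matrix genes take up a large part of the counts at P5, and without the 18 genes other than keratins among the 20 most abundant, the shares were 0.77% ± 0.01 and 2.52% ± 0.43 (SD, n = 4). These are shares of one list, given with no test.

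Per kilobase of gene, Krt5 and Krt14 exchanged places. Krt5 was 43.8% and Krt14 34.5% of all keratin counts per kilobase in the mean of P5, and Krt14 was 49.8% and Krt5 33.6% at P12. Krt17, next at P5 with 15.8%, was at 2.49%, and Krt15 went from 2.78% to 0.189%. In their place Krt6a reached 4.34%, Krt10 2.12%, Krt6b 1.94%, Krt13 1.85% and Krt16 1.32% in the mean of P12, from between 0.022% and 0.413% at P5. The basal genes together stayed between 78.9% and 83.4% in all libraries except P12 library 4, where they were 91.6%.

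**Figure D3:**
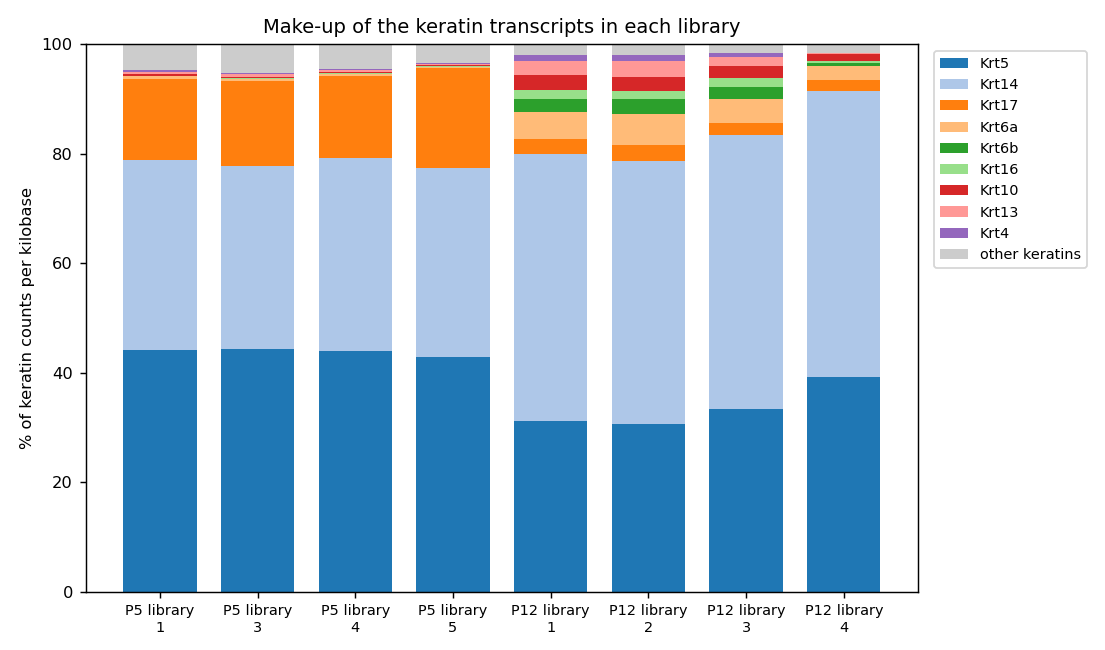
Share of each named keratin in the keratin counts per kilobase of each library, in percent, stacked to 100; grey is the sum of the other keratins. Krt17 is the band above Krt5 and Krt14 in the P5 bars, and Krt6a, Krt10, Krt6b, Krt13 and Krt16 widen in P12 libraries 1 to 3 and less in P12 library 4.

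Type I keratins exceeded type II at both ages on the per-kilobase scale, but only at P12 in counts not divided by gene length. In those counts the type I part was 46.85% to 48.37% at P5 and 51.01% to 53.53% at P12. Per kilobase, the type I part of all keratin counts was 53.77% to 55.62% at P5 (mean 54.35% ± 0.87, SD, n = 4) and 56.88% to 59.48% at P12 (mean 58.54% ± 1.15, SD, n = 4). This balance rested on Krt14 and Krt5, the most abundant gene of each type. Without them the type I part was 91.36% ± 1.18 at P5, when Krt17 and Krt15 made up most of the remainder, and 52.85% ± 1.45 at P12 (SD, n = 4), so that the difference between the ages changed its direction.

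Ratios of filament partners within a library do not depend on how libraries are scaled. The ratio of Krt14 to Krt5 per kilobase was 0.783, 0.757, 0.804 and 0.809 at P5 and 1.57, 1.57, 1.5 and 1.33 at P12. Krt5 was thus the more abundant chain in every P5 library and Krt14 in every P12 library. The log2 ratio was -0.34 ± 0.04 at P5 and 0.58 ± 0.11 at P12 (SD, n = 4), a difference of 0.92 (exact permutation p = 0.0286, adjusted over 5 pairs 0.0358). The same p-values were found for Krt13 over Krt4, whose log2 ratio was 0.56 ± 0.10 at P5 and 1.27 ± 0.13 at P12 (SD, n = 4).

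Because Krt8 fell and Krt18 did not pass, their ratio turned over. Krt18 over Krt8 per kilobase was 0.548, 0.529, 0.440 and 0.326 at P5 and 3.54, 5.84, 5.38 and 1.45 at P12, a difference in the log2 ratio of 2.98 (exact permutation p = 0.0286, adjusted over 5 pairs 0.0358). The difference was 3.41 without P12 library 4. Of the 100-base stretches of Krt8, 16.9% also occur in its pseudogene Krt8-ps, which had at most 1 count. Krt10 over Krt1 was 5.69, 10.2, 9.42 and 11.2 at P5 and 25, 23.2, 22.9 and 122 at P12. Its difference in the log2 ratio was 2.01 with P12 library 4 and 1.42 without it, and the exact permutation test with it gave p = 0.0286 (adjusted over 5 pairs 0.0358).

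Krt16 over Krt6a did not separate the ages. This log2 ratio was -2.76 ± 0.23 at P5 and -1.89 ± 0.62 at P12 (SD, n = 4), a difference of 0.87 (exact permutation p = 0.0857, also after adjustment over 5 pairs). P12 libraries 1 to 3 were at -1.52, -1.80 and -1.44, and library 4, at -2.80, was inside the P5 range of -3.01 to -2.50. Without library 4 the difference was 1.17. Its value also depends on how reads were split between Krt6a and Krt6b.

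**Figure D4:**
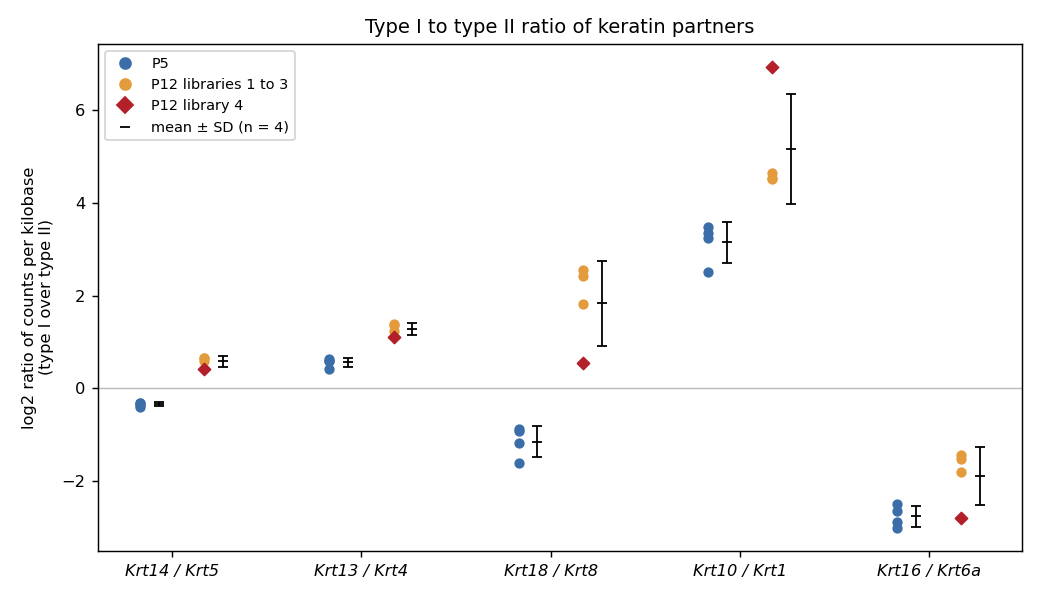
Log2 ratio of counts per kilobase of the type I over the type II gene for 5 filament pairs in each library, P5 in blue, P12 libraries 1 to 3 in orange and P12 library 4 as a red diamond; bars are the mean ± SD of the 4 libraries of an age. Krt14 over Krt5 and Krt18 over Krt8 cross 0 between the ages, and library 4 stands apart for Krt10 over Krt1 and Krt16 over Krt6a.

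P12 library 4 held the lowest P12 level of 14 of the 17 keratins that were higher at P12, while it was the lowest P12 library for 44.3% of all genes called higher. Among the 31 tested keratins it was the lowest P12 library for 21, against 34.3% of all genes tested. Among the 9 that were lower at P12 it was the highest for 3, Krt8, Krt35 and Krt222, against 39.5% of all genes called lower. How far it fell short differed from gene to gene, also within a group such as the suprabasal mucosal keratins. Its level was 0.0574 times the median of the other P12 libraries for Krt13, 0.0624 for Krt4 and 0.0667 for Krt1. For Krt23 it was 0.106, for Krt78 0.118, for Krt6b 0.162 and for Krt16 0.163. For Krt27 it was 0.302, for Krt10 0.338, for Krt76 0.392, for Krt6a 0.397 and for Krt24 0.435. For the basal genes Krt14 and Krt5 it was 0.801 and 0.908, and for Krt75, Krt42 and Krt84 it was 1.28, 1.44 and 1.44. Over all genes called higher, the median of this ratio was 0.946, and 90% of them lay between 0.468 and 1.44.

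Set against P5 instead, the library labelled P12 4 had 1.39 times the P5 mean of Krt13, 0.95 times that of Krt4 and 0.747 times that of Krt1. It had 3.85 times the P5 mean of Krt14, 2.28 times that of Krt5, 57.9 times that of Krt6b and 145 times that of Krt24. Krt23 and Krt27, at 1.17 and 1.14 times their P5 means, were also near their P5 level in this library. One library is not a group, and this comparison has no test. Without it the log2 fold change from P5 was 3.46 for Krt1, 3.43 for Krt23, 4.66 for Krt78, 4.87 for Krt10, 6.59 for Krt16, 8.62 for Krt6b and 5.39 for Krt6a, and the keratin share of all counts rose by 1.83 percentage points in place of 1.64.

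**Figure D5:**
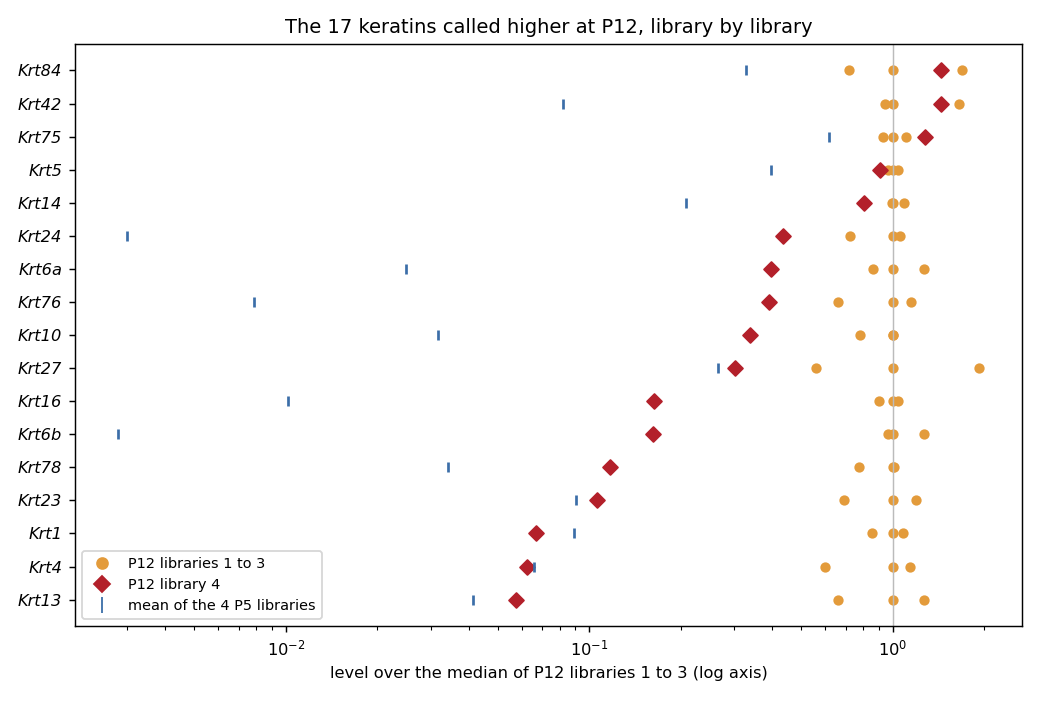
Level of the 17 keratins called higher at P12, divided by the median of P12 libraries 1 to 3 (log axis). Orange points are P12 libraries 1 to 3, red diamonds P12 library 4 and blue ticks the mean of the 4 P5 libraries. The red diamond lies close to the blue tick for Krt13, Krt4, Krt1, Krt23 and Krt27 and above 1 for Krt75, Krt42 and Krt84.

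Markers of cornifying mucosa moved with these keratins. Of the 15 genes of that list, 11 were tested, all 11 were higher at P12, and in all 11 the lowest P12 level was in library 4. Below the filter, the means of Sprr1b and Flg went from 0.33 to 81.6 and from 1.38 to 41.5 normalized counts. In P12 library 4 these genes had 8.03 and 1.0. The means of Ivl and Sprr2a3, also below the filter, went from 6.14 to 7.6 and from 1.06 to 2.17. No marker of the list was at 0 in all libraries. Their summed level was 919 to 1095 normalized counts at P5, 12831 to 16418 in P12 libraries 1 to 3 and 4335 in P12 library 4. Sprr3, Lor and Crnn, a small proline-rich protein, loricrin and cornulin, had 0.0855, 0.0789 and 0.0623 times the median of the other P12 libraries there. Dmkn, Lypd3 and Sbsn fell short by less, at 0.481, 0.419 and 0.326 times that median. Dmkn alone held 2772 of the 4335 normalized counts in library 4. The part of mucosal tissue in the rise of Krt13, Krt4, Krt1 and the other keratins was not tested.

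Ameloblast markers in P12 library 4 also differed from those in the other P12 libraries. The secretory markers summed to 621683 normalized counts in it and to between 237041 and 433633 in the others, and the maturation markers to 482565 against 356963 to 458253. Odam held 346241 of these 482565 and was at 0.967 times the median of the other P12 libraries. Klk4, Amtn, Slc24a4 and Wdr72 were at 1.76, 1.81, 1.78 and 1.37 times that median. The endothelial markers, all 3 higher at P12, summed to 1922 to 2306 at P5 and to 3719 to 4031 at P12. The macrophage markers summed to 631 to 883 and then to 958 to 1299, with 2 of 3 higher. The 6 markers of mesenchyme, odontoblasts and bone summed to 866336 in P12 library 4 and to between 929478 and 1079037 in the other P12 libraries. For 5 of these 6 the lowest P12 level was in library 4, from 0.44 times the median of the others for Ibsp to 0.919 for Col1a1. From P5 to P12, Ibsp was higher (log2 fold change 1.77), 2 were lower and 3 did not pass.

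Genes of proteins that anchor or bind keratin filaments mostly had higher RNA levels at P12 too. Of 15 such genes, all tested, 12 were higher, 1 was lower and 2 did not pass, with a median log2 fold change of 0.85. Over all genes tested, 28.8% were higher and 28.4% lower. The lists of linkers, filaments and markers were chosen with earlier results of these data known, so that their counts of genes are descriptions. With single libraries left out, Ppl (0.47, edgeR adjusted p = 0.043) kept its call only without P12 library 4. Pkp3 (0.29) lost its call without P5 library 3 and without P12 library 2. The desmosomal linker Dsp rose by a log2 fold change of 1.22 ± 0.09 (SE), plakoglobin, Jup, by 1.98 ± 0.09, the cytolinker Eppk1 by 2.06 ± 0.16 and plakophilin 2, Pkp2, by 3.48 ± 0.41. Fam83h, which recruits casein kinase 1 to keratin filaments and is mutated in a human enamel disease, rose by 1.28 ± 0.14. The kinase gene Csnk1a1 did not pass the test, at -0.08 ± 0.06, nor did Dst, at 0.02 ± 0.09. Krtdap, at 4.03 ± 0.60 and at 4.39 without P12 library 4, is also one of the mucosal markers above. Tchp, trichoplein, was the gene that was lower, at -0.36 ± 0.07.

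Intermediate filament genes other than keratins did not share this direction. Of 15 tested, 2 were higher, 8 were lower and 5 did not pass, with a median log2 fold change of -0.68. Gfap, at -1.41, had 353 normalized counts in P5 library 4 and 114 to 130 in the other P5 libraries. It lost its call without that library and without any one of P12 libraries 1 to 3. Bfsp1, at -0.68, lost its call without P5 library 1 and without P12 library 3. The neuronal filament genes Nefl, Nefm, Nefh, Ina and Prph were lower, with log2 fold changes between -4.58 and -3.12. P5 library 3 held the highest level of Prph, with 201 normalized counts (38.6 to 69.9 in the other P5 libraries), and of Nefh, with 167 (41.1 to 59.3). Without it their log2 fold changes were -2.91 and -2.46, and that of Nefl was -5.26 without P12 library 4; all 3 genes were still lower. Lamin A, Lmna, was higher at 1.29 ± 0.12 (SE), and lamin B1, Lmnb1, lower at -1.67 ± 0.14. Vim, the intermediate filament of mesenchyme, did not pass the test, at 0.21 ± 0.12, but did so without P12 library 4, at 0.29 (edgeR adjusted p = 0.036).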

How the data were processed

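The values are raw counts of reads per gene in 8 libraries, as the authors deposited them, with no normalization, beside each gene's name, coordinates and length. The submitters' processing notes name mm39 and CASAVA, but the table's coordinates are those of GRCm38: 53548 of 54532 genes, the 53 keratins included, have the same coordinates in GENCODE M21. Aligner, counter and strand use are not given in the sources used here.

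The ages were compared over all genes in R 4.3.3 with edgeR 4.0.16 (filterByExpr, TMM, glmQLFit, glmQLFTest, no covariate; Benjamini-Hochberg adjustment over the 16440 genes tested, threshold 0.05). Normalized counts are counts over the effective library size, scaled to its mean of 19006280. Exact permutation tests (two-sided, 70 splits) were run on single genes and ratios, on log2 normalized counts plus 1 or on log2 ratios of counts per kilobase plus 0.5. DESeq2 1.42.0 (the tool of the paper's methods), limma-voom (limma 3.58.1) and other scalings, filters and left-out libraries were alternatives. The fits were tested on simulated data. Summaries used numpy 2.4.6, scipy 1.17.1, pandas 2.3.3 and matplotlib 3.10.9.

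All keratins are accounted for: tested ones are named with their fold change and the others with their highest count or its range. Other genes come from fixed lists of linkers, filaments and markers. Shared sequence was found from exact 100-base stretches of GENCODE M21 transcripts. Members and lists were chosen with earlier results of these data known. Same-numbered libraries of the ages did not deviate together. Reads carried no molecular identifiers, so that depth limits cover counting error only.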

Additional observations from a re-analysis of the deposited data

Results flagged for a closer look

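Among 76 groups of 4 libraries examined, 6 held 1 library far from the other 3 for a keratin or a keratin ratio, where chance gives about 1 in 20 groups, here 3.8. P12 library 4 was the distant one for Krt16, with 831 normalized counts (4593 to 5285 in the others), for Krt8, with 42.2 (19.4 to 20.4), and for the log2 ratio of Krt10 to Krt1, with 6.93 (4.52 to 4.64). P5 library 5 was distant for Krt17, with 15968 normalized counts (12984 to 13115), and for Krt76, with 5.29 (21.2 to 24.4). P5 library 3 was distant for Krt14, with 31982 (34535 to 34971).

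A further gene, chosen after its values were seen, was read by the same distance. Gm5478, a protein-coding gene on chromosome 15 (chr15:101643020-101647380, minus strand) that shares 100-base stretches with Krt6a, Krt6b and Krt5, had 540 counts in P12 library 2, between 0 and 6 in the other P12 libraries and 0 in every P5 library.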

How the results depend on the processing

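Of the 26 called keratins, 24 kept their direction and their call in every one of 18 other fits that tested them, and none reversed. Krt1 lost its call by limma-voom (log2 fold change 2.62, adjusted p = 0.10), and Krt27 lost it by limma-voom (1.56, adjusted p = 0.055) and in the 6 libraries with a replicate number shared by the ages (1.34, adjusted p = 0.051). With at least 10 counts required in every library, 11 keratins were higher and 5 lower; the 10 other called genes were no longer tested. With each library left out in turn, 17 to 19 keratins were higher and 9 lower. Same-numbered libraries did not deviate together over the genes tested (correlations 0.04, 0.00 and -0.04). So few correlations cannot decide whether the numbers pair the libraries. With the replicate block 17 keratins were higher and 9 lower. Among uncalled genes, the log2 fold change of Krt18 was -0.03 without P5 library 5 and up to 0.31 with other libraries left out, and it turned to -0.21 with the replicate block and to -0.17 in the same 6 libraries without it, that of Krt71 to -0.04 in those 6 libraries, and that of Krt80 (-0.57 to -0.13 with each library left out) to 0.04 when scaled by total count and to 0.05 without both P12 library 4 and P5 library 5; the cause was not tested. Scaling by total count made 79.2% of all calls higher, against 50.3%. The difference in the type I share was 4.19 percentage points, 3.87 to 4.74 with each library left out in turn, and -38.51 without Krt14 and Krt5. With each library left out, the keratin share rose by 1.52 to 1.83 percentage points, and the log2 ratio by 0.89 to 0.97 for Krt14 over Krt5, 0.66 to 0.77 for Krt13 over Krt4, 2.74 to 3.41 for Krt18 over Krt8, 1.42 to 2.22 for Krt10 over Krt1 and 0.72 to 1.17 for Krt16 over Krt6a. Exact tests on 3 libraries against 4 cannot go below 0.0571. Keratins at a few counts are limited by depth.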
